A study of Mus musculus with 14 samples.

Results

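The second day of differentiation was examined in C2C12 cells that had been transfected with siRNA against Klf5 (siKlf5), by setting the library of differentiation day 2 against the library of day 1. Of 24016 transcripts in the deposited table, 1 per gene, the 11591 that averaged 10 FPKM or more across the 8 RNA libraries were compared (10888 coding RefSeq transcripts and 703 noncoding ones). C2C12 is an established mouse myoblast line that withdraws from the cell cycle and fuses into myotubes when growth medium with fetal bovine serum is replaced by differentiation medium with horse serum. The cells received a pool of siRNAs against Klf5 or control siRNA (siCtrl) while still in growth medium, and poly(A) RNA was taken on days 0, 1, 2 and 3 of differentiation from whole cultures. Each siRNA and day has 1 library, so the 2 siKlf5 libraries compared have no replicate, no p-value is given, and every change is described by its size and by the counting error of its reads, given as a 95% interval of the log2 ratio. A transcript was called higher or lower when its ratio passed 1.5-fold. Culture, transfection and library differences between the 2 days cannot be told apart from the day. In RNA from whole cultures, fewer cells of a type and less RNA per cell cannot be told apart either.

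Klf5 is a zinc-finger transcription factor of the Krüppel-like family. In differentiating myoblasts the basic helix-loop-helix factors MyoD and myogenin, acting with E proteins at E-box sequences (CANNTG) and together with Mef2 factors, switch on the genes of the contractile apparatus, while serum withdrawal lets the cells leave the cycle. Between the first and the second day in differentiation medium C2C12 cells normally pass from committed, elongated myocytes to young myotubes, and late contractile genes such as adult myosins and calsequestrin appear after the early embryonic ones. Cells also carry an amino acid response: when amino acids run short or proteins fold poorly in the endoplasmic reticulum, the factor ATF4 and its C/EBP partners raise genes of asparagine and serine synthesis and amino acid transport.

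The 2 libraries held 8119452 reads (day 1) and 11808641 reads (day 2) recovered from the deposited values, a depth ratio of 1.45, against 2.59 between the same days with siCtrl (7850497 and 20301506 reads). The 8 libraries spanned 7850497 to 20301506 reads. Labels were checked with Klf5 and with muscle genes. Klf5 (NM_009769, mm9 chromosome 14, 99697910 to 99712628, plus strand) was at 159.6 on day 1 and 192 on day 2 with siKlf5, against 381 and 614 with siCtrl. Of the 8 markers of differentiated muscle all 8 passed the filter, with a summed FPKM value of 12820.2 on day 1 and 17621 on day 2. Some markers of cells that a myoblast culture should lack were listed at 0 in both siKlf5 libraries, and others were expressed. At 0 were Adipoq, Plin1 and Lep of adipocytes and Sp7, Bglap, Ibsp and Alpl of osteoblasts. Also at 0 were Pecam1 of endothelial cells, Epcam and Krt18 of epithelial cells, and Snap25 and Syt1 of neurons. Over the lists for 7 other cell types 8 of 35 markers passed the filter, among them Pparg (33.7 to 37.9), Runx2 (69.2 to 61.6) and Sox9 (236 to 175). Tubb3 of the neuron list and Cdh1 of the epithelial list also passed, and their values are given further below. Of the macrophage markers Lyz2 went from 30.0 to 39.6 and Cd68 from 8.35 to 1.91 on 9 and 3 reads. Of 8 markers of undifferentiated myoblasts 1 was higher (Id1) and 1 lower (Ccnd1), with a median log2 ratio of 0.07.

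The promoters of the genes on which the results turn are shown first, from RefSeq on GRCm38.p6, each running from 250 bases before to 50 bases after the annotated start, 5′ to 3′ on the gene's strand. Those of Asns, Chac1, Fgf21 and Trib3, genes of the amino acid response that rose with siKlf5 and fell with siCtrl, hold TGATGNAA on 1 of the strands, the core of the C/EBP and ATF response element, here in capitals. This motif was chosen after the values were seen.
Asns (chr6:7693160-7693459, minus strand): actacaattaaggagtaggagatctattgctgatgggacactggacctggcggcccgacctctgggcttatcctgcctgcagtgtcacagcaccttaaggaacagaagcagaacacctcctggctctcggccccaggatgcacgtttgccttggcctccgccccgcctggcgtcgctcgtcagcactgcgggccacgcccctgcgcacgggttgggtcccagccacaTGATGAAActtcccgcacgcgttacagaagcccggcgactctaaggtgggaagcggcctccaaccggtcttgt
Chac1 (chr2:119350992-119351291, plus strand): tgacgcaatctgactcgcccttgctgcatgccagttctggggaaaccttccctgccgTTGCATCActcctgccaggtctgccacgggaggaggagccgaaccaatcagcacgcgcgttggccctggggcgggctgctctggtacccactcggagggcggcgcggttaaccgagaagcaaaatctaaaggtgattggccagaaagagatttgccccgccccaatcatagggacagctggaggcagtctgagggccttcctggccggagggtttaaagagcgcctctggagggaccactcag
Fgf21 (chr7:45615441-45615740, minus strand): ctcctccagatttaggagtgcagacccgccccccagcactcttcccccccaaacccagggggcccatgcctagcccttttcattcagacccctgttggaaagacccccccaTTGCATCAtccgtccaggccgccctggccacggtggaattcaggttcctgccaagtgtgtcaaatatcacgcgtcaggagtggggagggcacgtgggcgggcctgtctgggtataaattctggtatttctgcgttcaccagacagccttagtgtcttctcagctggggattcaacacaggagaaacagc
Trib3 (chr2:152344011-152344310, minus strand): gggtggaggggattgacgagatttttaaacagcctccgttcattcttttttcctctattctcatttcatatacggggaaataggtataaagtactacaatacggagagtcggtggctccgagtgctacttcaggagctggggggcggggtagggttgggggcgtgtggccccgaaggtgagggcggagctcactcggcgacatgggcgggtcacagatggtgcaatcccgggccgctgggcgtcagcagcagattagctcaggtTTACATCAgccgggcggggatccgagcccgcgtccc
The promoters of Mybph, Casq1 and Myh4, muscle genes that with siKlf5 were higher on day 2 than on day 1, hold the E-box CAGCTG, in capitals. They are examples, and CAGCTG was in 38.6% of the promoters of the sarcomere lists. It was in 18.6% of the promoters of higher transcripts, 16.3% of those of lower ones and 15.3% of those of all compared.
Mybph (chr1:134193198-134193497, plus strand): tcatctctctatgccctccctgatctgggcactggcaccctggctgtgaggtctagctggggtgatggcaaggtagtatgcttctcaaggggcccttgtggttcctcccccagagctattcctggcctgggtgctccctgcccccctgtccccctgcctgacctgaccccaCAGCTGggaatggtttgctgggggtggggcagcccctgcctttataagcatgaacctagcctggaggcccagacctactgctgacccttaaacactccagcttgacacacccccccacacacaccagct
Casq1 (chr1:172219846-172220145, minus strand): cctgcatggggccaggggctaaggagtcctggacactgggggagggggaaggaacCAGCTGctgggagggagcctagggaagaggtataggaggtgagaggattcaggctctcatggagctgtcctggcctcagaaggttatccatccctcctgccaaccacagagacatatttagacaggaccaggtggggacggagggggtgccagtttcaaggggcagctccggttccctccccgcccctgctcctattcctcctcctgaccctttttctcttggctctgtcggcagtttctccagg
Myh4 (chr11:67237562-67237861, plus strand): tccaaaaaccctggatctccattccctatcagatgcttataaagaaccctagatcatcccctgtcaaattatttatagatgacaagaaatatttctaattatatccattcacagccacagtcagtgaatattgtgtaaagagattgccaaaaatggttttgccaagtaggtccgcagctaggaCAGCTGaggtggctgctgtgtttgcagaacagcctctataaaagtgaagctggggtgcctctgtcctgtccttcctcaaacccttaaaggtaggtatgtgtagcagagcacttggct
The first base of the match lay at -23 from the start in Asns, -193 in Chac1, -139 in Fgf21, -79 in Mybph, -195 in Casq1 and -67 in Myh4, and at 15, past the start, in Trib3. A match is a description of the letters and not a bound site.

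Most transcripts stayed within 1.5-fold between the 2 days. Of the 11591 compared, 1273 (11.0%) were higher on day 2 by more than 1.5-fold and 690 (5.95%) were lower, and the other 9628 (83.1%) stayed within 1.5-fold. The median log2 ratio was 0.04. Past 2-fold, 540 were higher and 251 lower. Increases thus made up 64.8% of the calls. With upper-quartile scaling in place of the deposited scaling, 1055 were higher and 894 lower, and the share of increases was 54.1%. The calls were concentrated among weakly expressed transcripts. When the transcripts were divided into 10 equal bins by mean FPKM value, 29.6% were higher and 19.1% lower in the lowest bin (10.0 to 21.6), against 2.93% and 1.21% in the highest bin (above 446). Among the 8009 transcripts with at least 300 reads in the higher of the 2 libraries, 522 (6.52%) were higher and 181 (2.26%) lower. At the edge of the filter stood Fetub, with a mean of 10.0 and values of 11.3 on day 1 and 8.89 on day 2, and Gbp2 (7.68 and 16.0), just inside, and Zfp429 (10.7 and 10.7) and Tigd5 (9.53 and 9.65), just outside.

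Many sarcomere genes were higher on day 2, among them the adult and perinatal myosins. Of 14 myosin chains and myosin kinases compared, 10 were higher and 0 lower, with a median log2 ratio of 1.62. Over all transcripts compared 11.0% were higher and 5.95% lower, with a median of 0.04. With siCtrl 10 of the 14 were also higher and 0 lower (median 1.58), beside 20.1% and 6.78% and a median of 0.16. The adult fast myosin heavy chain Myh4 was at 53.0 on day 1 and 231 on day 2, a log2 ratio of 2.12 (counting interval 1.76 to 2.51). The adult fast chain Myh1 was at 140.1 on day 1 and 576 on day 2 (2.04), and the adult chain Myh2 at 18.2 on day 1 and 63.0 on day 2 (1.78). The perinatal chain Myh8 was at 71.8 on day 1 and 264 on day 2, a log2 ratio of 1.88 (counting interval 1.56 to 2.21). These 4 genes lie beside Myh3 in 1 cluster on chromosome 11 (Myh3 from position 66891802 and Myh8 from position 67090626 of mm9), have similar coding sequences and can share reads, so the split among them is uncertain. Embryonic Myh3, which is expressed first in new myotubes, was already at 1736 on day 1 and reached 2514, a log2 ratio of 0.53 (counting interval 0.46 to 0.61) that did not pass 1.5-fold. The slow and cardiac chains Myh7 (5.11 to 15.7) and Myh6 (0.879 to 4.74) rose from low levels, with 7 and 55 reads for Myh6. Among light chains, Myl4, the embryonic and atrial chain, was at 298 on day 1 and 929 on day 2, a log2 ratio of 1.64 (counting interval 1.23 to 2.08), whereas the fast chain Mylpf had a log2 ratio of 0.28 and Myl1 of 0.54.

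Thin filament genes were at high levels already on day 1 and had a smaller median. Of the list 10 of 20 were higher and 0 lower, with a median of 0.53. With siCtrl 7 were higher and 0 lower (median 0.25). Over all transcripts compared 11.0% were higher and 5.95% lower with siKlf5, and 20.1% and 6.78% with siCtrl. The largest increase in the list was that of Nrap, an anchor of assembling myofibrils, which rose from 92.2 to 228 (log2 ratio 1.31). Klhl40, which stabilizes thin filament proteins, rose from 48.4 to 119 (1.29). The filament-length factor Lmod2 rose from 137 to 299 (1.13). Nebulin, Neb, the giant protein that spans the thin filament, rose from 92.6 to 174 (0.91). These 4 proteins act in assembling the filament or setting its length, and the contractile components named next had smaller changes. This grouping was made after the values were seen, and not every member that passed is named. The troponins Tnni1, Tnni2 and Tnnt1 passed 1.5-fold with log2 ratios of 0.66, 0.63 and 0.59. The sarcomeric actins Acta1 and Actc1 did not pass, each with a log2 ratio of 0.21. Tpm3, a tropomyosin also expressed outside muscle, had a log2 ratio of -0.46.

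The M-band and Z-disc list had 18 of 26 members higher and 0 lower, with a median of 0.88. In the siCtrl libraries 19 were higher and 1 lower (median 1.16). The shares over all transcripts were 11.0% higher and 5.95% lower with siKlf5, and 20.1% and 6.78% with siCtrl. Mybpc1, slow myosin-binding protein C, was at 22.4 on day 1 and 112 on day 2, a log2 ratio of 2.32 (counting interval 1.64 to 3.09). Mybph, a myosin-binding protein of the A-band (mm9 chromosome 1, 136090025 to 136097809), rose from 1132 to 1921 (0.76, interval 0.60 to 0.92), a smaller change from a far higher level. The M-band protein Myom2 rose from 376 to 656 (0.80, interval 0.64 to 0.97). In the Z-disc, alpha-actinin 2, Actn2, the cross-linker of actin filaments, rose from 195 to 588 (1.59, interval 1.31 to 1.88). The small X-linked muscle protein Smpx rose from 75.9 to 258 (1.76), and the calcineurin-binding Myoz2 from 67.4 to 166 (1.30). The list's 2 highest ratios rest on few reads. Myoz1 with 2 and 71 reads had a log2 ratio of 4.49 (counting interval 0.65 to 19.56), and Tcap, the titin cap, with 6 and 96 reads had 3.43 (counting interval 0.77 to 8.85). Titin itself, at a log2 ratio of 0.27, and desmin, at -0.08, did not pass.

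Some genes of calcium handling, the synapse and muscle metabolism were also higher. In the list of excitation-contraction coupling and muscle channels 17 of 29 members were higher and 0 lower, with a median of 0.72. The siCtrl counts were also 17 and 0 (median 0.73). The shares over all transcripts were 11.0% higher and 5.95% lower with siKlf5, and 20.1% and 6.78% with siCtrl. Casq1, the calcium-binding protein of the fast-fiber sarcoplasmic reticulum (mm9 chromosome 1, 174140025 to 174150026), showed the largest increase among coding transcripts with at least 300 reads in the higher siKlf5 library. It was at 35.9 on day 1 and 239.7 on day 2, on 89 and 867 reads, a log2 ratio of 2.74 (counting interval 1.97 to 3.62) or 6.67-fold. Casq2, its cardiac and slow-fiber relative, stood far higher on day 1 and rose from 824 to 1473 (0.84). The muscle sodium channel Scn4a rose from 16.3 to 60.9 (1.89, interval 1.26 to 2.60). Cacna1s, the voltage sensor of the T-tubule, rose from 84.8 to 205 (1.27, interval 0.97 to 1.59). The calcium pump Atp2a1 rose from 597 to 1186 (0.99), and the small heat shock protein Hspb7 from 58.9 to 148 (1.33). The calcium release channel Ryr1, with a log2 ratio of 0.46, did not pass.

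Of the acetylcholine receptor and synapse list 5 of 14 were higher and 0 lower (median 0.56). The siCtrl counts were 9 and 0 (median 0.84). Beside these and the metabolic genes below, 11.0% of all transcripts were higher and 5.95% lower with siKlf5, and 20.1% and 6.78% with siCtrl. The adhesion molecule Ncam1 rose from 462 to 953 (1.04, interval 0.90 to 1.19). Musk, the kinase that responds to agrin, rose from 122 to 219.7 (0.85), and Lrp4, the agrin receptor, from 131 to 222 (0.76). The receptor subunits Chrna1, Chrnb1, Chrnd and Chrng had log2 ratios between 0.32 and 0.58 and did not pass. Among creatine kinase, glycogen and oxygen-handling genes 15 of 24 were higher and 0 lower (median 0.81). The siCtrl counts for them were 13 and 1 (median 0.89). Myoglobin, Mb, the oxygen store of muscle, rose from 153 to 530.4 (1.80, interval 1.25 to 2.38). The membrane ADP-ribosyltransferase Art1 rose from 67.0 to 166 (1.31). The muscle isoforms of 2 glycolytic enzymes were among the higher genes: the mutase Pgam2 rose from 222 to 452 (1.02), and the phosphofructokinase Pfkm from 522 to 949 (0.86). Muscle creatine kinase, Ckm, rose from 640.4 to 1004 (0.65), while the brain-type Ckb had a log2 ratio of -0.47. Of the 5 smooth muscle markers 1 moved with these lists. Tagln rose from 148 to 349.9 (1.24), Acta2 had a log2 ratio of 0.21, and Myh11, the defining gene, had 9 and 0 reads. The summed FPKM value of the 5 was 1821 on day 1 and 2290.3 on day 2, and its part in the muscle lists was not tested.

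**Figure D1:**
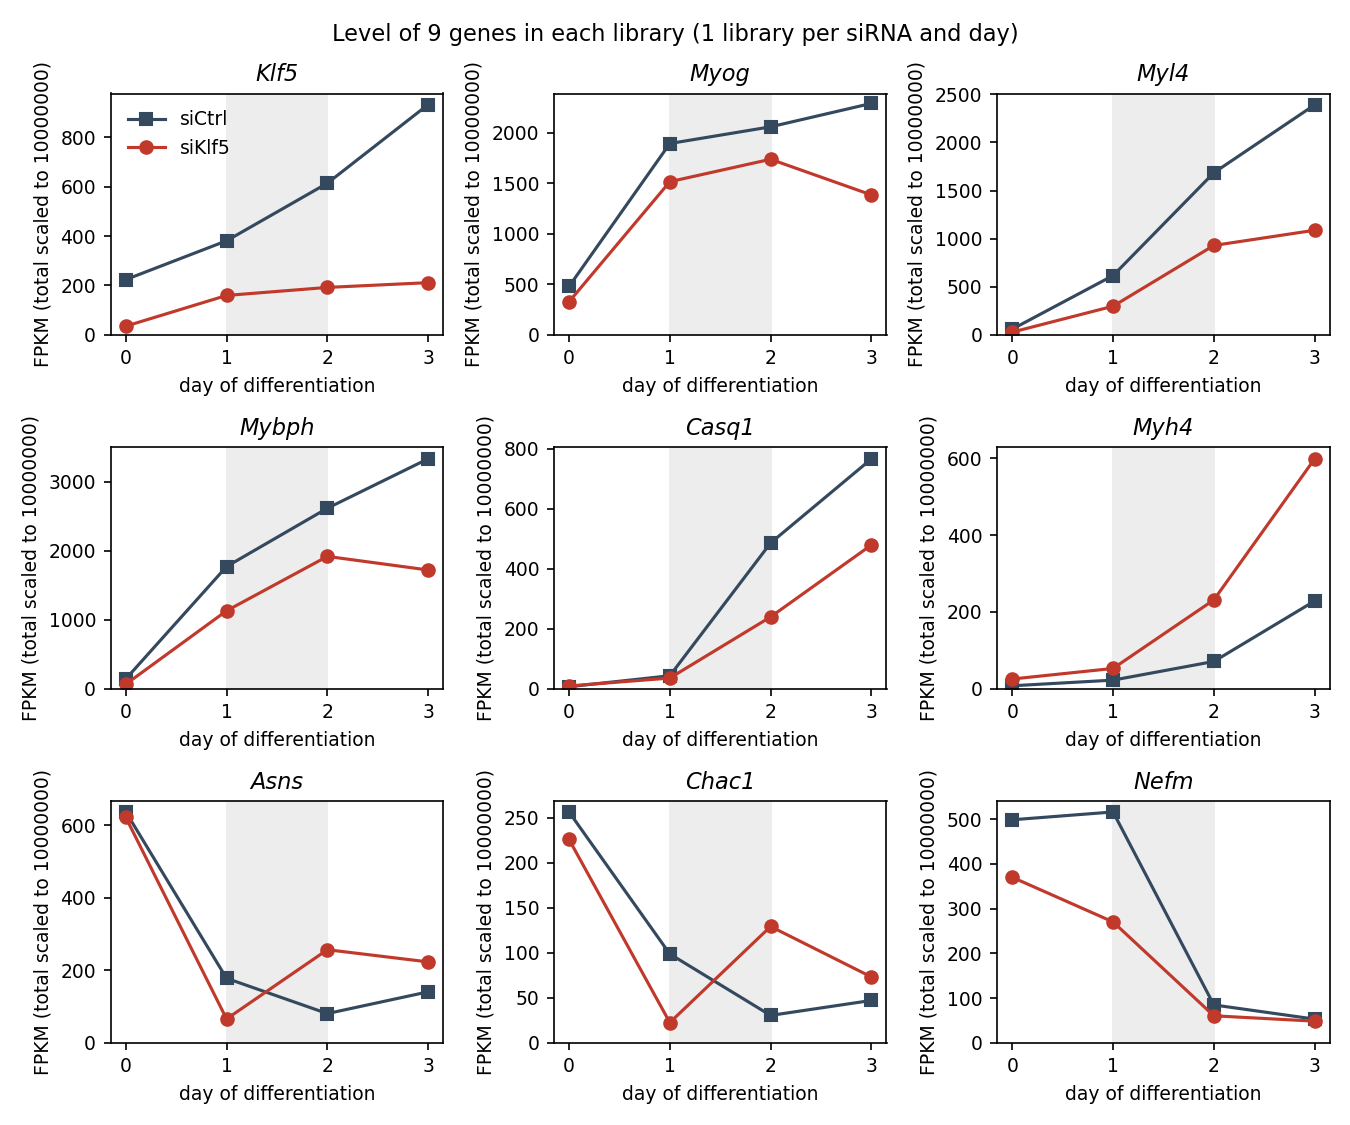
FPKM value (vertical axes, scaled to a total of 10000000 and starting at 0) of 9 genes against the day of differentiation, with siCtrl (squares) and siKlf5 (circles). Each point is 1 library, and the shaded band marks the step from day 1 to day 2. Myl4, Casq1, Myh4 and Mybph rose in the band with both siRNAs. Mybph had log2 ratios of 0.76 with siKlf5 and 0.56 with siCtrl, of which the second did not pass 1.5-fold. Asns and Chac1 rose with siKlf5 and fell with siCtrl, and Nefm fell with both.

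Most regulators of the muscle program stayed within 1.5-fold over the same day, as did 83.1% of all transcripts compared. Of 19 myogenic regulators 2 were higher and 2 lower (10.5% each), with a median of 0.08. Over all transcripts 11.0% were higher and 5.95% lower, so these counts are no result about the list. Myod1 was at 454 on day 1 and 533 on day 2, a log2 ratio of 0.23 (counting interval -0.03 to 0.50), and Myog, which encodes myogenin, at 1517 on day 1 and 1739.6 on day 2, a log2 ratio of 0.20 (counting interval 0.04 to 0.36). Both intervals lie below 1.5-fold, which is 0.58 on this scale. Klf5 had a log2 ratio of 0.27 (counting interval -0.20 to 0.75) and did not pass. Higher were Mef2c, a Mef2 factor of late differentiation (53.2 on day 1 and 116 on day 2, 1.12, interval 0.75 to 1.52), and Id1, an inhibitor of MyoD dimerization (51.6 on day 1 and 108 on day 2, 1.07, on 64 and 196 reads). Lower were musculin, Msc, a repressor at E-boxes (101 on day 1 and 45.4 on day 2, -1.16), and Pitx3 (24.6 on day 1 and 12.4 on day 2, -0.99, on 45 and 33 reads). The Mef2 factor Mef2d was at 350.4 on day 1 and 503 on day 2 (0.52), and the satellite cell factor Pax7 had a log2 ratio of -0.55. Of the 13 Krüppel-like and Sp factors compared, Klf5 included, 0 were higher and 0 lower, with a median of -0.14. Among fusion genes 5 of 15 were higher and 0 lower, with a median of 0.10. Gm7325, which encodes the fusion peptide myomixer, was at 318 on day 1 and 795 on day 2 (1.32, interval 0.89 to 1.77), the membrane repair gene Dysf at 76.4 on day 1 and 124 on day 2 (0.69) and N-cadherin, Cdh2, at 317 on day 1 and 475 on day 2 (0.59). Tmem8c, which encodes the fusion protein myomaker, had a log2 ratio of 0.50 and did not pass. Cav3, the caveolin of muscle, was at 17.6 on day 1 and 95.9 on day 2 (2.44) on 27 and 215 reads.

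The same lists were followed on the neighbouring days, which share a library with the step described here. From day 0 to day 1 with siKlf5 12 of 14 myosin genes, 19 of 20 thin filament genes and 25 of 26 M-band and Z-disc genes were higher, with medians of 1.83, 3.35 and 2.48. From day 2 to day 3 the counts were 6, 1 and 5 and the medians 0.38, 0.08 and 0.18. Myh4 went on to 598 and Casq1 to 479 on day 3, whereas Mybph was at 1724 and Myog at 1386, each below its day 2 value. Over that last step 19 of the 20 thin filament genes stayed within 1.5-fold, and the adult chains Myh1, Myh2 and Myh4 had log2 ratios of 0.89, 0.95 and 1.37.

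Several genes of the amino acid response were higher on day 2 with siKlf5 and lower with siCtrl. In the list of endoplasmic reticulum and amino acid stress 11 of 33 members were higher with siKlf5 and 0 lower (median 0.12). With siCtrl 0 were higher and 14 lower (median -0.54). Over all transcripts 11.0% were higher and 5.95% lower with siKlf5, and 20.1% and 6.78% with siCtrl. In the highest of the 10 bins of mean FPKM value 20.0% were lower with siCtrl. With each change centred within 50 bins of mean FPKM value, added after seeing the data, the list medians were 0.10 and -0.30. Of the 33 members 8 were higher with siKlf5 and lower with siCtrl, each past 1.5-fold, a pattern that 76 of all 11591 transcripts (0.656%) had. Chac1, an enzyme that degrades glutathione (mm9 chromosome 2, 119176978 to 119180062), was at 22.5 on day 1 and 129 on day 2 with siKlf5, a log2 ratio of 2.51 (counting interval 1.45 to 3.81), and went from 98.7 to 30.5 with siCtrl (-1.69, interval -2.49 to -0.92). Asns, asparagine synthetase (mm9 chromosome 6, 7625171 to 7643182), was at 65.8 on day 1 and 257 on day 2 with siKlf5 (1.96, interval 1.38 to 2.60) and went from 178 to 80.6 with siCtrl (-1.14, interval -1.61 to -0.67). Fgf21, a hormone of nutrient stress, was at 62.1 on day 1 and 269 on day 2 (2.11, interval 1.26 to 3.09), against 214 to 48.7 with siCtrl (-2.14). For each of these 3 genes the intervals of the 2 siRNAs, which hold counting error only, lay on opposite sides of 0. The genes were named for the size of their changes, so this is a description and not a test. The mitochondrial folate enzyme Mthfd2 was at 119 on day 1 and 407 on day 2 (1.77), against 246 to 114 with siCtrl (-1.10). The other 4 of the 8 had the same pattern. The pseudokinase Trib3 went from 9.53 to 38.2 with siKlf5 and from 37.4 to 9.75 with siCtrl. Psph, of serine synthesis, went from 52.5 to 126 and from 133 to 65.5, and Phgdh, the first enzyme of that pathway, from 221 to 363 and from 359 to 226. The leucine transporter Slc7a5 went from 214 to 463 with siKlf5 and from 396 to 261 with siCtrl. Slc3a2, the partner chain of Slc7a5, Shmt2, a serine hydroxymethyltransferase, and Ppp1r15a, a phosphatase subunit that ends the stress response, were higher with siKlf5 (0.62, 0.86 and 0.95) and had log2 ratios of -0.25, -0.28 and 0.40 with siCtrl.

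Over the 4 days Asns stood at 621, 65.8, 257 and 223 with siKlf5 and at 636, 178, 80.6 and 141 with siCtrl. The day 0 values of the 2 siRNAs were close, the day 1 value was lower with siKlf5 and the day 2 value higher. Chac1 stood at 226, 22.5, 129 and 73.2 with siKlf5 and at 256, 98.7, 30.5 and 47.1 with siCtrl, with the same order of the siRNAs on days 1 and 2. The increase with siKlf5 thus started from a day 1 value below the control's. Among factors of the ATF and C/EBP families some passed 1.5-fold with siKlf5 and others did not. Atf5, which was on no list, had a log2 ratio of 1.28 with siKlf5, on 1409 reads in the higher library, and of -0.0002 with siCtrl. The C/EBP factor Cebpb had 0.87 with siKlf5 and -0.22 with siCtrl. Atf4 had a log2 ratio of 0.38 with siKlf5 and -0.34 with siCtrl, and Ddit3, which encodes CHOP, 0.56 and 0.54. Chaperones of the endoplasmic reticulum in the same list did not pass with siKlf5. Hspa5, the main one, had a log2 ratio of -0.30, Hsp90b1 of -0.34 and Manf of -0.45. With siCtrl Hspa5 (-0.73), Hsp90b1 (-0.88) and Pdia6 (-0.61) were lower past 1.5-fold, while Calr (-0.54), Pdia4 (-0.14) and Dnajb11 (-0.03) did not pass. Lower values with siCtrl were thus not particular to the genes of the amino acid response. The list held both arms, and the 11 members that passed with siKlf5 were of amino acid and folate metabolism, transport and the ATF4 pathway. This grouping was made after the values were seen, and its cause was not tested. Other members of the same arm did not pass. Among these were Atf4, Ddit3 and Psat1, an enzyme of serine synthesis (0.48 with siKlf5 and -0.50 with siCtrl). Of the 40 promoters matched to 34 of the 76 transcripts, 22.5% held TGATGNAA, those of Asns, Chac1, Fgf21 and Trib3 among them. The share was 3.39% for the promoters of transcripts higher with siKlf5 and 2.15% for those of all compared transcripts. Both the motif and the 76 transcripts were chosen from these same values, so the shares are a description and not a test. Of the 76, 22 had at least 60 reads in the higher siKlf5 library. Among 10 promoters of stress genes that were higher with siKlf5 4 held it, and among 21 promoters of the other stress genes 2 did (those of Atf3 and Herpud1).

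**Figure D2:**
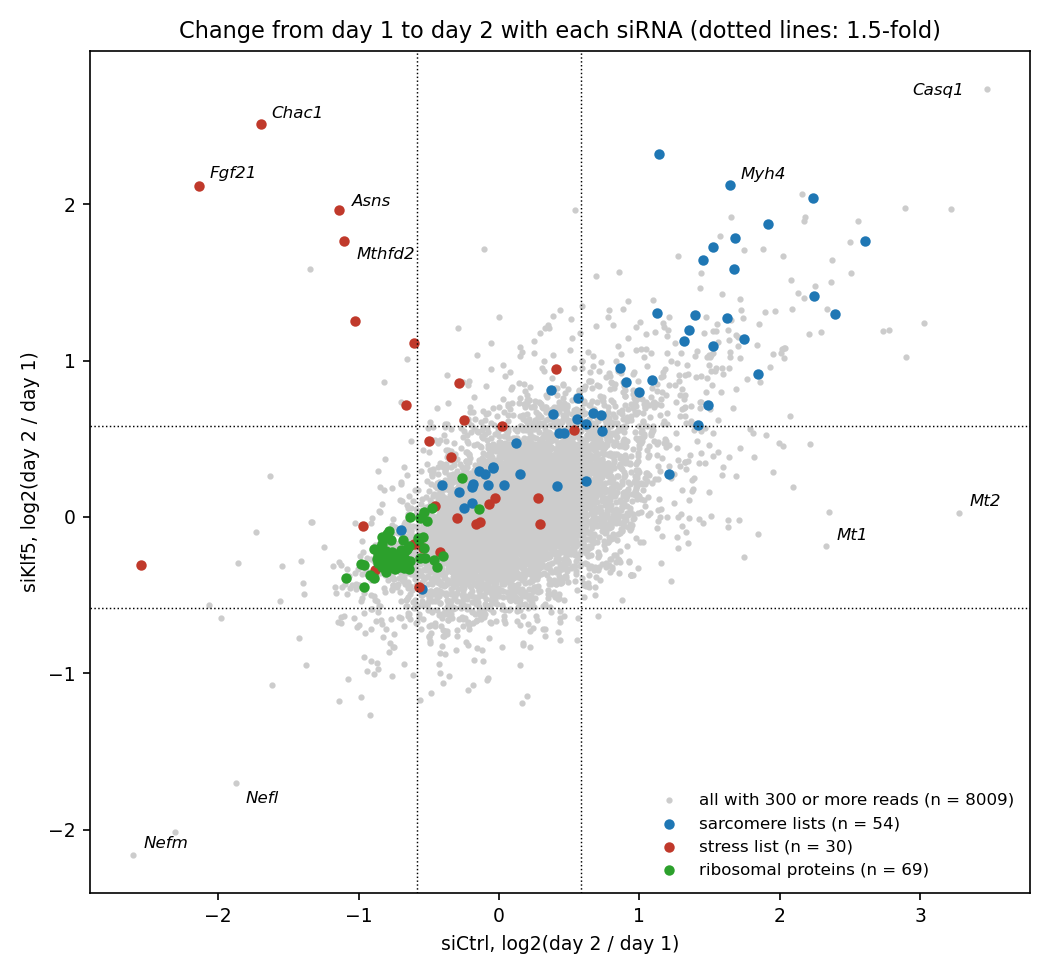
Log2 ratio of day 2 to day 1 with siKlf5 (vertical axis) against that with siCtrl (horizontal axis) for the 8009 transcripts with at least 300 reads in the higher siKlf5 library, 1 point per transcript, with the sarcomere, stress and ribosomal protein lists in colour. Most sarcomere genes with large ratios lie in the upper right, ribosomal protein genes lie farther below 0 with siCtrl than with siKlf5, and Chac1, Fgf21, Asns and Mthfd2 lie in the upper left corner.

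The comparison with siCtrl also showed how far the 2 courses ran together. With siCtrl 2331 transcripts (20.1%) were higher on day 2 and 786 (6.78%) lower, with a median of 0.16. 691 were higher with both siRNAs, which is 54.3% of those higher with siKlf5 and 29.6% of those higher with siCtrl. 200 were lower with both, 29.0% of those lower with siKlf5 and 25.4% of those lower with siCtrl. Across the 8009 transcripts with at least 300 reads the 2 changes had a Pearson r of 0.56 and a Spearman rho of 0.49, and across all 11591 of 0.20 and 0.38. These are correlations across transcripts, which are not independent replicates, and the 4 libraries differ in depth. In the opposite direction, lower with siKlf5 and higher with siCtrl, were 121 transcripts (1.04%). With at least 120 reads in the higher siKlf5 library there were 14 transcripts higher with siKlf5 and lower with siCtrl, and 17 the other way. Besides the 8 of the stress list, the 14 held the amino acid transporter Slc1a4 (39.3 to 71.3 with siKlf5, 85.8 to 48.5 with siCtrl), the proline enzyme Aldh18a1 (75.6 to 153, 127 to 80.7), the mitochondrial folate enzyme Aldh1l2 (20.0 to 60.3, 58.7 to 23.1), the syndecan Sdc3 (33.2 to 55.3, 76.5 to 47.2), the synaptotagmin Syt11 (log2 ratios 0.72 with siKlf5 and -0.97 with siCtrl) and the ankyrin Ank2 (7.57 to 12.9, 23.8 to 13.2). The 17 included the peptide transporter Tap2 (38.8 to 17.0, 11.0 to 24.6), the zinc exporter Slc30a1 (34.9 to 20.1, 7.01 to 21.8) and the helicases Wrn (31.3 to 18.0, 13.4 to 23.3) and Recql4 (38.5 to 24.1, 12.6 to 27.9). Since no change has a replicate, the difference between the 2 changes was not tested for any of them.

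Among coding transcripts with at least 300 reads in the highest of the 4 libraries, the 6 largest positive differences between the 2 changes were those of Fgf21 (4.25), Chac1 (4.21), Asns (3.10), Aldh1l2 (2.93), Mthfd2 (2.87) and the elastic fiber protein Fbln5 (2.42). Fbln5 rests on 4 reads on day 1 and 236 on day 2, and its log2 ratio was 5.09 (counting interval 2.36 to 12.99). The 6 largest negative ones were those of the metallothioneins Mt2 (-3.25) and Mt1 (-2.51), which bind zinc, the synaptotagmin Syt8 (-2.71), E-cadherin Cdh1 (-2.69), the connexin Gja5 (-2.53) and the kinase subunit Prkaa2 (-2.49). Mt1 was at 737, 507, 445 and 481 with siKlf5 on days 0 to 3, and at 639.8, 78.4, 394 and 344 with siCtrl. Mt2 was at 283 and 288 with siKlf5 and at 26.9 and 261 with siCtrl. For both metallothioneins the siCtrl library of day 1 stood below the other 7 libraries, and the siKlf5 log2 ratios were -0.19 for Mt1 and 0.03 for Mt2. Syt8, Cdh1 and Gja5 had 60 or fewer reads in each of the siKlf5 libraries.

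Few transcripts with many reads fell. The largest decreases among coding transcripts with at least 300 reads in the higher siKlf5 library were the neurofilament genes Nefm and Nefl, intermediate filament proteins of neurons that are expressed in C2C12 cells. Nefm was at 270.4 on day 1 and 60.5 on day 2, a log2 ratio of -2.16 (counting interval -2.59 to -1.74) or 4.47-fold lower, and Nefl at 1148 on day 1 and 354 on day 2, a log2 ratio of -1.70 (counting interval -1.93 to -1.47). Both also fell with siCtrl, with log2 ratios of -2.61 and -1.88. Among the neuron markers Snap25 and Syt1 were at 0 in both siKlf5 libraries, Rbfox3 had 0 and 2 reads, and Tubb3, a tubulin that differentiating myoblasts also express, went from 457 to 359.5. Add2, a protein of the membrane skeleton, fell from 80.0 to 33.1 (-1.27, interval -1.92 to -0.64). The junction protein Cgnl1 fell from 41.3 to 18.0 (-1.19), and the oxysterol-binding protein Osbp2 from 133 to 58.9 (-1.17). The small GTPase Rab13 fell from 195 to 86.4 (-1.17), and Car3, a carbonic anhydrase of muscle, from 174 to 82.6 (-1.08). The last 5 of the 12 were the nucleosome-binding protein Hmgn5, the zinc-finger factor Zfhx4, the bicarbonate transporter Slc4a8, the zinc-finger protein Zfp871 and Socs4, a suppressor of cytokine signalling, with log2 ratios between -1.15 and -1.08. None of the 12 was on a gene list. Of the 12, Cgnl1 and Zfhx4 had siCtrl log2 ratios above 0 (0.16 and 0.20), and the other 10 below 0. Among the 12 largest increases were Casq1, Chac1, Mybpc1, Myh4, Fgf21, Myh1 and Asns. The other 5 were not on a list. The Z-disc protein Mypn rose from 21.1 to 88.6 (2.07), and the fatty acid transporter Cd36 from 11.0 to 43.5 (1.98). Ctxn3 rose from 31.7 to 124 (1.97), Tceal7 from 97.0 to 379 (1.96) and Bmper, a regulator of bone morphogenetic proteins, from 11.3 to 42.9 (1.92). Of these 12, Chac1, Fgf21 and Asns had a siCtrl log2 ratio below 0, and the other 9 above 0, with Tceal7 the lowest of the 9 at 0.54.

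Most genes of cell division had fallen before this step and mostly stayed within 1.5-fold during it. Of 45 DNA replication genes 44 were lower from day 0 to day 1 with siKlf5 (median -1.11), while over the following day 2 were higher and 1 lower (median 0.07). Those 3 were the primase Prim1 (118 on day 1 and 185 on day 2, 0.65), the single-strand binding protein Rpa2 (81.7 on day 1 and 126 on day 2, 0.63) and the factor E2f2 (294 on day 1 and 188 on day 2, -0.64, interval -0.88 to -0.41). Of 50 mitosis genes 46 were lower from day 0 to day 1 (median -1.08), and over the following day 1 was higher and 3 were lower (median -0.08). Lower were the proliferation marker Mki67 (121 on day 1 and 63.5 on day 2, -0.92, interval -1.19 to -0.66) and the kinetochore proteins Cenpe (98.8 on day 1 and 58.3 on day 2, -0.76) and Cenpf (59.4 on day 1 and 37.7 on day 2, -0.65), and higher was the spindle kinase Ttk (57.5 on day 1 and 89.4 on day 2, 0.64). These 3 lower genes have long transcripts, and in the longest of 10 equal bins of exon length (5866 bases or more) the median of all transcripts with siKlf5 was -0.10, while it was between 0.00 and 0.08 in the other 9. The part of length in these values was not tested. With siCtrl 7 replication genes and 11 mitosis genes were higher and none of either list lower, with medians of 0.37 and 0.36. Over all transcripts with siCtrl 20.1% were higher and 6.78% lower (median 0.16), so these counts of higher genes are no result about the lists. Centred within 50 bins of mean FPKM value, the medians were 0.18 and 0.23 with siCtrl and 0.09 and -0.11 with siKlf5. Among inhibitors, D cyclins and pocket proteins 2 of 21 were higher and 1 was lower (median 0.01). Cyclin D1, Ccnd1, was at 385 on day 1 and 199 on day 2 (-0.95, interval -1.20 to -0.71), the inhibitor Cdkn2d at 248 on day 1 and 389 on day 2 (0.65) and the growth arrest gene Gadd45a at 628 on day 1 and 958 on day 2 (0.61), while Cdkn1a, which encodes p21, had a log2 ratio of 0.32.

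In the lists of the extracellular matrix and of signalling most members stayed within 1.5-fold. The share of members that were higher was 15.6% for matrix proteins, 13.9% for growth factors, 12.0% for immediate early genes and 12.5% for interferon genes. These are near the 11.0% of all transcripts compared, so these counts of higher members are no result about the lists. For matrix proteases and inhibitors the share was 27.8%. In the same order the shares that were lower were 3.13%, 2.78%, 12.0%, 12.5% and 5.56%, beside 5.95% of all transcripts. 5 of 32 collagens and matrix proteins were higher and 1 lower (median 0.19). Col12a1 was at 20.2 on day 1 and 53.6 on day 2 (1.40, interval 0.96 to 1.87), the matrix Gla protein Mgp at 553 on day 1 and 989.8 on day 2 (0.84), Ctgf at 59.8 on day 1 and 102 on day 2 (0.77) and the type I collagen chain Col1a1 at 486 on day 1 and 769.8 on day 2 (0.66), with Col1a2, the other type I chain, at a log2 ratio of -0.15. Of 18 matrix proteases and inhibitors 5, all of the Adamts family, were higher and 1 was lower (median 0.27). Adamts2, which processes procollagen, was at 37.2 on day 1 and 71.7 on day 2 (0.94), Adamts1 at 61.4 on day 1 and 111 on day 2 (0.85), and the urokinase receptor Plaur at 207 on day 1 and 121 on day 2 (-0.78). In the growth factor list 5 of 36 were higher and 1 was lower (median 0.06). The activin and myostatin antagonist follistatin, Fst, was at 39.1 on day 1 and 132 on day 2 (1.76, interval 1.09 to 2.49), Igfbp4 at 87.4 on day 1 and 170.1 on day 2 (0.96), and the HGF receptor Met at 99.8 on day 1 and 54.6 on day 2 (-0.87). Igf2, the autocrine growth factor of differentiating myoblasts, had a log2 ratio of 0.52. Of 25 immediate early genes 3 were higher and 3 lower (median -0.04), among them Egr3 (68.0 on day 1 and 103 on day 2) and Ier3 (208 on day 1 and 135 on day 2). Of 16 interferon and antigen presentation genes 2 were higher and 2 lower (median 0.08), those 4 on 129 reads or fewer, and B2m had a log2 ratio of 0.11.

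On the deposited scaling, metabolic and ribosomal lists showed small shifts with siKlf5 and larger ones with siCtrl. Over all transcripts 11.0% were higher and 5.95% lower with siKlf5, and 20.1% and 6.78% with siCtrl. In the highest of the 10 bins of mean FPKM value 1.21% were lower with siKlf5 and 20.0% with siCtrl. Of 25 glycolysis genes 2 were higher and 2 lower with siKlf5 (median -0.29), and 1 was higher and 20 were lower with siCtrl (median -0.98). Hexokinase 1, Hk1, was at 532 on day 1 and 334 on day 2 (-0.67), pyruvate kinase Pkm at 2890.4 on day 1 and 2062 on day 2 (-0.49) and the pyruvate dehydrogenase kinase Pdk4 at 26.8 on day 1 and 61.5 on day 2 (1.19). Of 69 cytosolic ribosomal protein genes 0 were higher and 0 lower with siKlf5, within a range of -0.45 to 0.25 and with a median of -0.25, and 54 were lower with siCtrl (median -0.74). Rpsa was at 1418 on day 1 and 1042 on day 2 (-0.45, interval -0.61 to -0.28). Of 44 oxidative phosphorylation genes 0 were higher and 0 lower with siKlf5 (median 0.05), with 4 lower with siCtrl. In the cholesterol and fatty acid list 0 of 29 were higher and 1 lower (median 0.08), with 8 lower with siCtrl (median -0.34). Cyp51, a cholesterol enzyme, had log2 ratios of 0.43 with siKlf5 and -0.36 with siCtrl.

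The medians differed with abundance. In the lowest of the 10 bins of mean FPKM value the median was 0.08 with siKlf5 and 0.42 with siCtrl, and in the highest bin -0.07 and -0.25, where 1.21% and 20.0% were lower. The slope was steeper with siCtrl, whose day 2 library was 2.59 times as deep as its day 1 library, than with siKlf5, at 1.45 times, and at most 3 reads were kept per position. When each change was centred on the median of transcripts of the same abundance (50 bins), an alternative added after seeing the data, the ribosomal list had a median of -0.07 with siKlf5 and -0.14 with siCtrl, glycolysis -0.11 and -0.67, the stress list 0.10 and -0.30, and the myosins 1.61 and 1.46. Centred in the same way, oxidative phosphorylation had medians of 0.06 with siKlf5 and 0.04 with siCtrl, and the cholesterol and fatty acid list 0.07 and -0.36. The part of depth in the difference between the 2 siRNAs was not tested beyond these values.

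**Figure D3:**
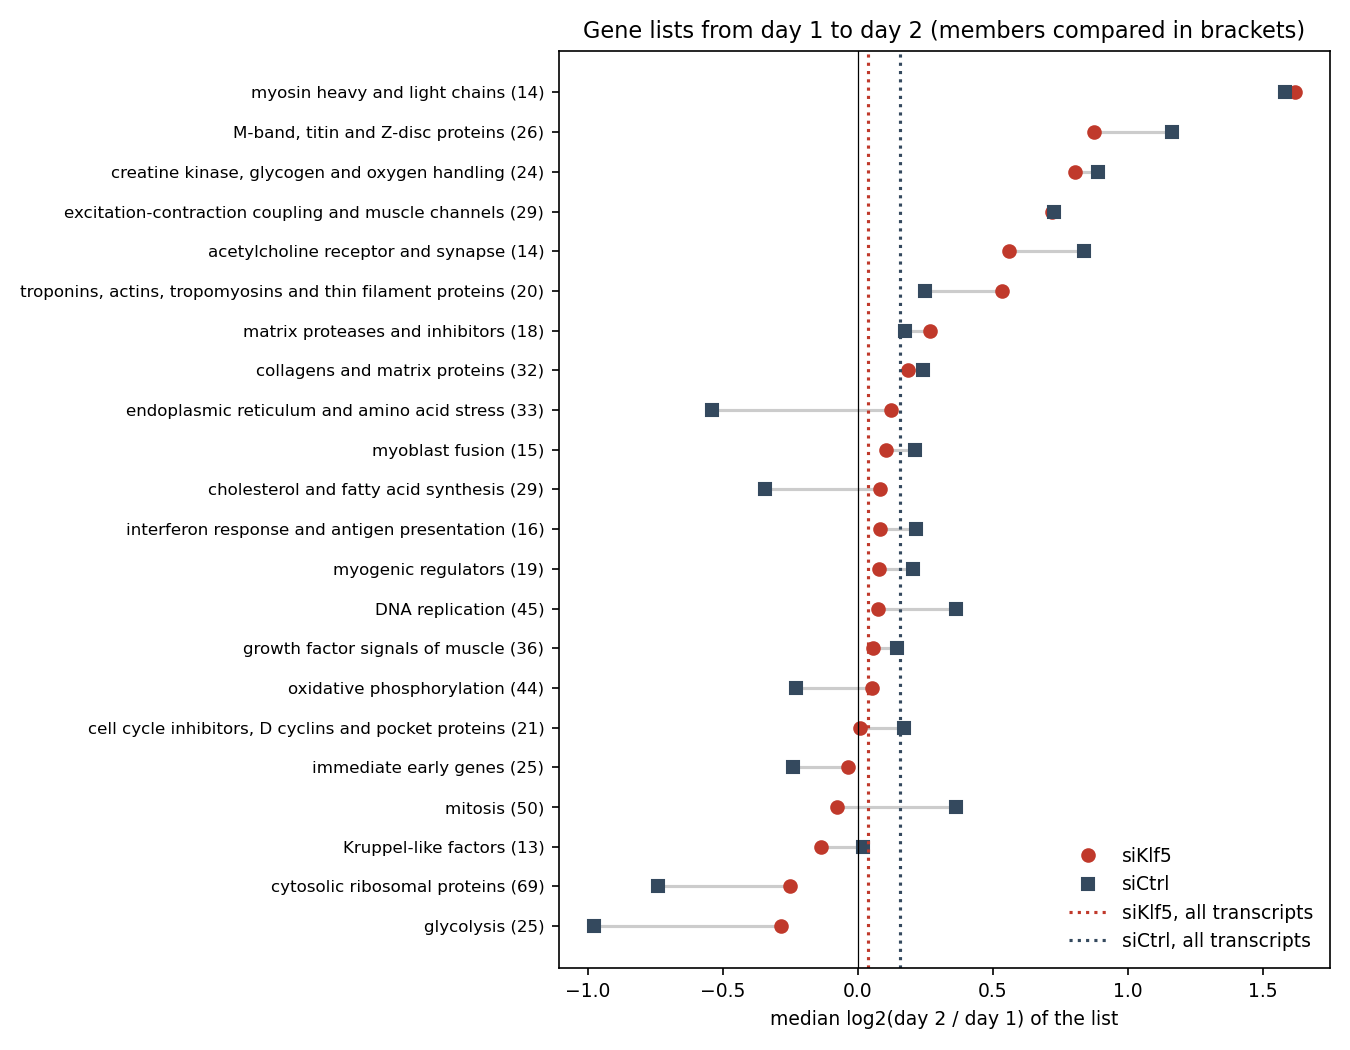
Median log2 ratio of day 2 to day 1 (horizontal axis) of 22 gene lists with siKlf5 (circles) and siCtrl (squares), with the number of members compared in brackets. Dotted lines mark the medians over all transcripts, 0.04 and 0.16, and the stress, glycolysis and ribosomal lists show wide gaps between the siRNAs, while the myosin and excitation-contraction coupling lists show narrow ones.

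**Figure D4:**
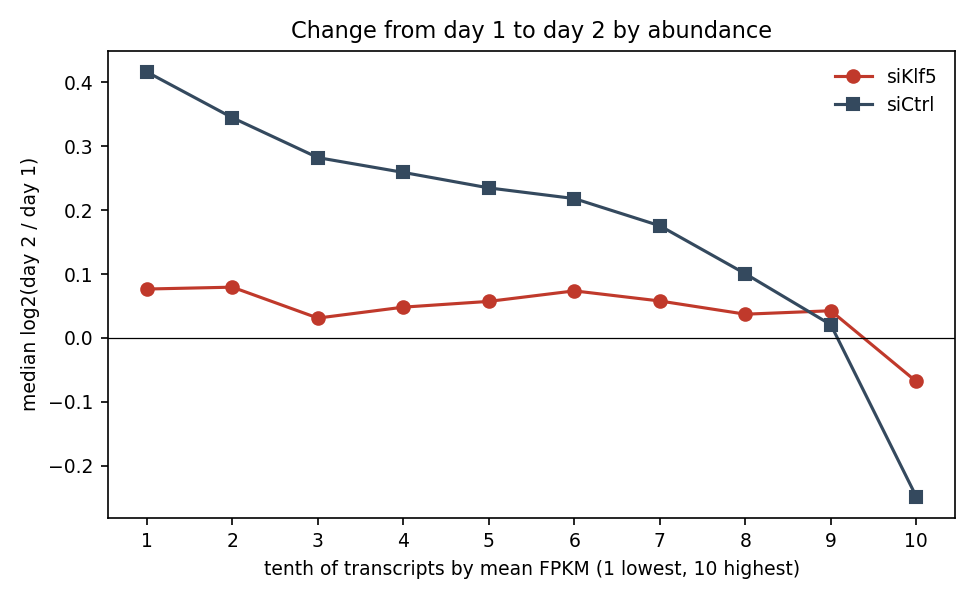
Median log2 ratio of day 2 to day 1 (vertical axis) in 10 equal bins of the 11591 transcripts ordered by mean FPKM value (horizontal axis, 1 the lowest), with siKlf5 (circles) and siCtrl (squares). The siCtrl medians fall from 0.42 to -0.25 and the siKlf5 medians from 0.08 to -0.07.

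Motifs were counted in the promoters of the higher and lower transcripts, on both strands of the 300 bases described above, as a description. Of the 1273 transcripts higher with siKlf5 857 matched a RefSeq promoter by symbol (1092 promoters), and of the 690 lower 426 did (534 promoters). CAGCTG was in 18.6% of the promoters of higher transcripts, 16.3% of those of lower ones, 15.3% of those of all compared and 16.3% of all 32851 promoters. It was in 38.6% of the 57 promoters of the sarcomere lists. The general E-box CANNTG, which contains CAGCTG, was in 68.6%, 65.2%, 62.8% and 72.3% of the same 4 sets and in 80.7% for the sarcomere lists. The Mef2 site CTANNNNTAG was in 5.04%, 3.0%, 3.05% and 3.69%, and in 17.5% for the sarcomere lists. CCAAT was in 39.5%, 33.1%, 37.7% and 37.4%. The GC box GGGCGG, the kind of sequence that Sp and Krüppel-like factors bind, was in 53.1% of the promoters of higher transcripts, 55.4% of those of lower ones, 63.7% of those of all compared and 35.7% of all promoters. The cell cycle motif TTTGAA was in 12.5%, 12.4%, 11.7% and 17.9%, and the E2F sequences TTCCCGC in 6.87%, 5.99%, 8.30% and 4.60%, and TTGGCGC in 4.21%, 2.25%, 4.31% and 2.45%.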

How the data were processed

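Poly(A) RNA of C2C12 cells was measured in 8 libraries, 1 per siRNA and day, and the 6 chromatin immunoprecipitation samples were not used here. Per the labels and the study's methods, the authors aligned paired-end reads to mm9 with STAR and counted them on exons of RefSeq transcripts with HOMER, on both strands, keeping at most 3 reads per position and 1 transcript per gene, so that antisense and near-identical genes can share reads. The deposited FPKM values were scaled to a matrix total of 10000000 per library. Besides these, the table as deposited by the authors has columns on a log2 scale, made after adding 1 and a further small number to each FPKM value, and none was used here. 1 such column names no day and was mapped to no sample.

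The ratio was log2((day 2 + 0.1)/(day 1 + 0.1)) over transcripts with a mean of at least 10, which understates the change of low values, and 1.5-fold was the threshold. Reads were recovered from FPKM values times exon length, which were whole multiples of 1 step per library (100% of 3635 to 4107 low values per library within 0.1). In every library a count of 6 reads was more frequent than a count of 5, as if fragments left reads in groups, so the exact (Clopper-Pearson) 95% intervals took 6 reads as 1 event, and they include no error other than counting error. Named were Klf5, Myod1, Myog, Mybph, Myl4, Myom2 and Myh3, the 12 largest increases and 12 largest decreases among coding transcripts with exons of at least 300 bp and at least 300 reads in the higher library, up to 4 members of each list with at least 300 reads, and the 6 largest differences from the siCtrl change in each direction. Other genes were named after their values were seen. The members, the 22 gene lists and the 10 marker lists were chosen with earlier results of these data known. Alternatives were other pseudocounts, filters, scalings and a 2-fold threshold. The calculations were tested on simulated data. Python 3.11.15, numpy 2.4.6, pandas 2.3.3 and scipy 1.17.1 were used. Coordinates of genes are those of the deposited table (mm9), and promoters are those of RefSeq on GRCm38.p6.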

Additional observations from a re-analysis of the deposited data

Results flagged for a closer look

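In 19 genes named here, 6 of them by the naming rule and 13 after their values were seen, the change from day 1 to day 2 went past 1.5-fold in one direction with siKlf5 and past 1.5-fold in the other with siCtrl. Each siRNA and day has 1 library, so the difference between the 2 changes was not tested. The log2 ratio with siKlf5 minus that with siCtrl was 4.25 for Fgf21, 4.21 for Chac1, 3.10 for Asns, 2.93 for Aldh1l2 and 2.87 for Mthfd2, and it was -2.69 for Cdh1. The first 5 rose with siKlf5 and fell with siCtrl. Cdh1 went from 10.2 to 3.98 with siKlf5 on 60 and 34 reads, with an interval of -3.15 to 0.26 that includes 0, and from 9.76 to 24.9 with siCtrl. Of the other 13, 9 rose with siKlf5 and fell with siCtrl. This difference was 3.92 for Trib3, 2.28 for Psph, 1.72 for Slc7a5 and 1.38 for Phgdh, which are on the stress list, and 1.68 for Slc1a4, 1.67 for Aldh18a1, 1.43 for Sdc3, 1.69 for Syt11 and 1.60 for Ank2. The other 4 went the opposite way, with -2.33 for Tap2, -2.41 for Slc30a1, -1.59 for Wrn and -1.81 for Recql4.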

How the results depend on the processing

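Of the 22 list medians under 6 alternatives (132 values), 126 stayed within the 95% order-statistic interval of the median, and none of those past 1.5-fold changed sign. Some medians near 0 did change sign. With upper-quartile scaling the cell cycle inhibitor median went from 0.01 to -0.06 and the oxidative phosphorylation median from 0.05 to -0.02. The 6 that moved were the glycolysis median, which was -0.32 with median-ratio centring and -0.36 with upper-quartile scaling, the DNA replication median, 0.0007 with upper-quartile scaling, and the ribosomal protein median, -0.29 with median-ratio centring, -0.32 with upper-quartile scaling and -0.067 when centred within 50 bins of mean FPKM value, the last chosen after seeing the data. Of 120 values for 40 single genes 119 lay within the counting interval, and the exception was Myh3, 0.46 with upper-quartile scaling. All 36 differences between the siRNAs, for 12 genes, kept within theirs.

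The counts of transcripts past the threshold depended on the filter. Higher and lower were 2170 and 1464 with a mean of at least 1, 3315 and 2350 with no filter, 569 and 262 with a mean of at least 50, and 540 and 251 with a 2-fold threshold. With at least 60 reads they were 1048 and 494. The other alternatives stayed within 1.5 times the reported counts.

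No paired analysis was possible because each siRNA and day has 1 library. For the same reason leaving out a replicate was not possible. The deposited log2 columns were not used as an alternative, since the siKlf5 day 1 column could not be mapped. Weakly expressed transcripts are limited by depth, and no value has a replicate error.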
